A study of Homo sapiens with 4 samples.

Results

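Mitosis and G2/M genes are switched on late in the cell cycle, and their products drive entry into mitosis, build the spindle, hold and separate the chromosomes and divide the cell. The 40 genes described here were listed by name and taken from the array by the gene name of each probe, using for each gene the probe whose mean signal over the arrays was highest. All 40 had a probe, and all 40 were among the 15454 gene names tested. They were well above background on all 4 arrays, so no member was lost to the filter on dim probes.

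The arrays came from GIST-T1 cells, a human line established from a GIST (gastrointestinal stromal tumor), which usually carries an activated KIT receptor kinase. One group of cells received 100 pmol of a mimic of miR-335 (a made RNA that stands in for the cell's own microRNA), and the other received the same amount of a mimic negative control. RNA was taken 48 h after transfection, and each group had 2 arrays. The comparison asks which transcripts were higher or lower with the mimic. The labels do not say whether the 2 samples of a group were separate cultures, so the p-values measure only the spread between these samples, which may be technical. The title and the transfection field of the mimic samples name miR-335, while a second line of their description names a miR-34a mimic. ZMPSTE24 and EIF5A2, predicted miR-335 targets that were picked with this comparison in view and are no independent check, fell with the mimic (changes of -0.86 and -0.84, limma adjusted p = 0.031 and 0.035). PDGFRA, examined elsewhere in the study for miR-34a sites, had a change of -0.08 (limma adjusted p = 0.354). All 4 arrays lay on 1 slide, the controls at positions 1 and 2 and the mimic arrays at positions 3 and 4, so position and group cannot be told apart. The 7 GIST markers looked for, KIT among them, were well above background on every array. Of the markers of other cell types, EPCAM and DES were too, and 7 had a probe that was well above background on none of the arrays. CD68 and CDH5 were well above it on some arrays only, and CD3E had no usable probe.

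The cell cycle regulates these genes largely through their promoters. Many of them carry a CHR element (cell cycle genes homology region), where the MuvB complex binds, and CCAAT boxes, where NF-Y binds; FOXM1 and MYBL2 act on the same promoters late in the cycle. TOP2A, which relieves the tangling of DNA, and the B-type cyclins, which activate CDK1, are textbook examples. In tumors the transcripts of these genes are read as a measure of dividing cells. In bulk samples such as these, fewer cells of a type and less RNA per cell cannot be told apart.

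The mature miR-335-5p of RefSeq is shown because its seed (bases 2 to 8, in capitals) is what a direct target would pair with; it lies at chr7:130496126-130496148 on the plus strand of GRCh38.p14. The labels do not say which arm the mimic copies.
hsa-miR-335-5p: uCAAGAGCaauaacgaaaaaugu
The match to that seed, GCTCTTG, was in 0 of the 49 probe sequences of the members and in 0.437% of the 50599 probes of the array. For the 3p arm the match ATGAAAA was in 1 of the 49, the CDK1 probe used here, and in 1.22% of all. A 60-base probe covers little of a transcript, so these counts say nothing about the rest of it.

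The promoters below were chosen to show the motifs that the members share. They are those of TOP2A and CCNB2, the members with the lowest changes, CCNB1, the paralog of CCNB2, and CENPA, the member with the highest change. Each is the 250 bases before the gene's start, 5′ to 3′ on the gene's strand, from RefSeq (GRCh38.p14). Capitals mark the CHR letters TTTGAA or TTCGAA and the letters CCAAT, on either strand, so that TTCAAA and ATTGG are the same motifs read on the opposite strand. TOP2A lies at chr17:40417897-40418146 (minus strand), CCNB2 at chr15:59104896-59105145 (plus), CCNB1 at chr5:69166900-69167149 (plus) and CENPA at chr2:26785806-26786055 (plus).
TOP2A: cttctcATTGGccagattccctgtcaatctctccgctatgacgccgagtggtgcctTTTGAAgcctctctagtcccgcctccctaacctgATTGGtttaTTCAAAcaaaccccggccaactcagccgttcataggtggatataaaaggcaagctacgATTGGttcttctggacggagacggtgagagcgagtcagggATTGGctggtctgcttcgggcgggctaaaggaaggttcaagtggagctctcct
CCNB2: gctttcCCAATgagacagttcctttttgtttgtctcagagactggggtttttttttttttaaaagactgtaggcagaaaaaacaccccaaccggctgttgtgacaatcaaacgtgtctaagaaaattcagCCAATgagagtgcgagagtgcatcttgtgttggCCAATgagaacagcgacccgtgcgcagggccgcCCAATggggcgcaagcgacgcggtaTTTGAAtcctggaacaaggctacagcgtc
CCNB1: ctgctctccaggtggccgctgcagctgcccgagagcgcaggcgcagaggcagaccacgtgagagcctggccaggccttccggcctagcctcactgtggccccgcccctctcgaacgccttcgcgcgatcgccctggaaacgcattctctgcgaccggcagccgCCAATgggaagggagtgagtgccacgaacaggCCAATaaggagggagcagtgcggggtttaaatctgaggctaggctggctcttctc
CENPA: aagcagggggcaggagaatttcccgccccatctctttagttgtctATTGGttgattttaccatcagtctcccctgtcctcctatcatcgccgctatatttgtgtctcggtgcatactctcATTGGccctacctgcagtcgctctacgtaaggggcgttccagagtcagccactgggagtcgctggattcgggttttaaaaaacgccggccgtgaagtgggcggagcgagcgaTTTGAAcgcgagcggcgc
TOP2A held 2 CHR matches and 4 CCAAT boxes in this window, and CCNB2 held 1 CHR match, 29 bases before its start, and 4 CCAAT boxes. CENPA held 1 CHR match, 18 bases before its start, and 2 CCAAT boxes. CCNB1 held 2 CCAAT boxes and no CHR match by these letters.

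The members as a list were rich in these letters. A promoter, here 250 bases before to 50 after the start, was given for 33 of the 40 genes, with 43 promoters in all, and a gene was counted when any of its promoters held the motif. FOXM1, AURKA, BUB3, TTK, BIRC5, TPX2 and UBE2C had no entry. A CHR match stood in 26 of the 33 genes (78.8%) against 19.5% of the 27305 genes of the table, and a CCAAT box in 27 (81.8%) against 39.7%. The share with both was 66.7% in the members and 7.85% over all genes. E2F-type letters (TTTCCCG, or TTTGGCG, or TTTCGCG, or TTTGCCG, on either strand) were in 21.2% of the members and 10.4% of all genes. Other mitosis genes resembled the members, with CHR letters in 70.0%, a CCAAT box in 70.0% and both in 52.0% of 50 genes. Genes of DNA replication and G1/S, which act earlier in the cycle, had a different makeup, with the CHR letters in 10.0% and E2F-type letters in 65.0% of 40 genes, and a CCAAT box in 24 of them. CHR and CCAAT letters overlapped in 1 place in the MKI67 promoter. A match is a description of letters, not evidence of binding, and TOP2A and CCNB2 shared both motifs with most of the members whose change had the other sign.

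**Figure D1:**
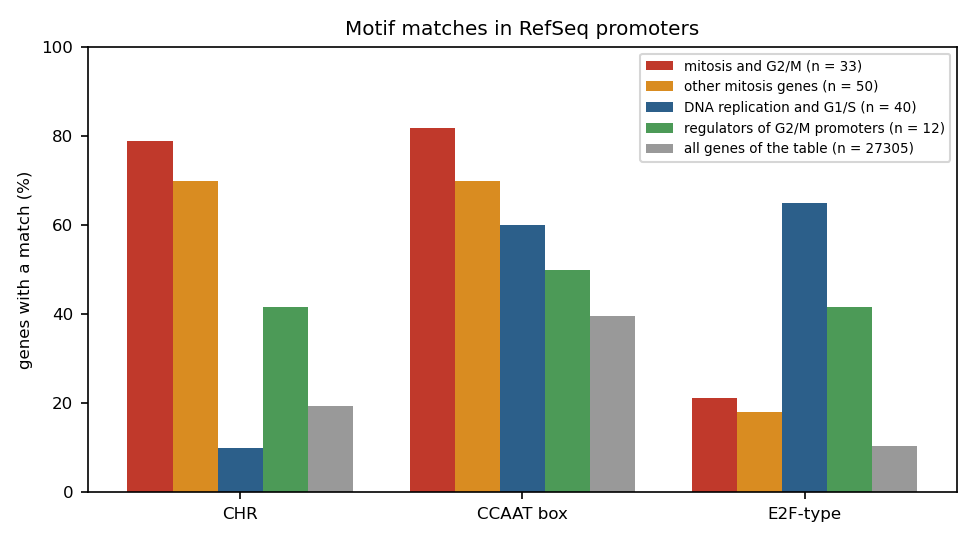
Share of genes (%, bars) whose RefSeq promoter held a CHR match, a CCAAT box or E2F-type letters, for the members, 3 other gene lists and all genes of the table, with the number of genes in each list. The members reach 78.8% for CHR and 81.8% for CCAAT, and the DNA replication and G1/S genes reach 65.0% for the E2F-type letters.

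Relative to the other probes, most mitosis and G2/M genes had slightly higher values with the miR-335 mimic, and TOP2A was lower. The change of a gene is given here as the difference of group means, mimic minus control, of log2 processed signal after each array was scaled to its own 75th percentile. By this measure 35 of the 40 members had a change above 0 and 5 below, and the median change was 0.13, while 46.2% of the 20328 tested probes were above 0 and their median was -0.01. Scaled to external spike-in probes instead, 9 members were above 0 and 31 below, with a median of -0.05 against -0.20 over all tested probes, so the sign of most members holds only relative to the other probes. The changes were small. No member passed 1.5-fold, a limit passed by 2.43% of all tested probes upward and 1.47% downward.

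Only TOP2A passed limma's test with Benjamini-Hochberg adjustment over all tested probes at 0.05. That is 1 of 40 members called lower and 0 called higher, where 1.15% of all tested probes were called lower and 1.47% higher (2.62% either way). Before adjustment, 20 members were higher and 3 lower at p under 0.05 (11.7% and 13.7% of all tested probes). Both mimic arrays lay above both control arrays for 30 members and below for 3, against 27.1% and 32.5% of all tested probes (59.7% together), and the groups overlapped for 7 members. For a single gene the smallest two-sided p of an exact permutation test over these arrays is 0.333.

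**Figure D2:**
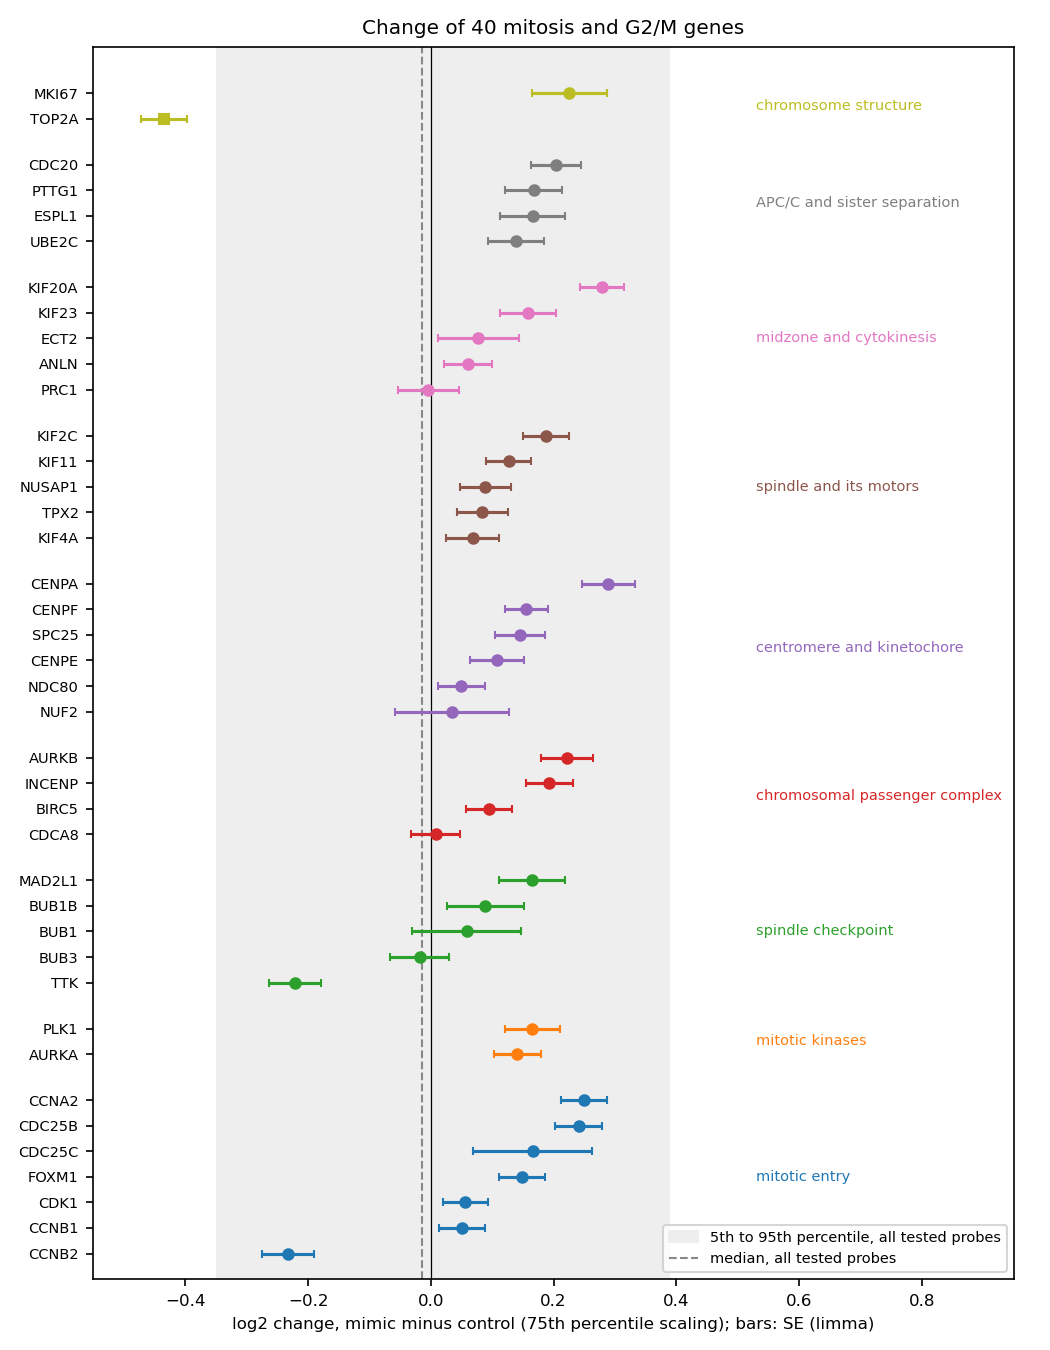
Change of each member (log2, mimic minus control, dots; the square is TOP2A, which passed the test) with its SE from limma, grouped by role. The grey band spans the 5th to 95th percentile of all tested probes and the dashed line their median; 35 dots lie right of 0, and TOP2A alone lies outside the band.

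The count of calls differed between settings, over all probes too. An intensity trend in limma's prior gave 20 members called higher and 3 lower (TOP2A, CCNB2 and TTK), beside 6.63% and 8.54% of all tested probes. Normexp background correction gave 5 higher (CENPA, KIF20A, CDC25B, CCNA2 and MKI67) and 2 lower (TOP2A and CCNB2), beside 3.9% and 3.73%. With 1 array left out, no member was called, but then 1 group has a single array, only the other group gives the spread, and 0 to 8 of all 20328 probes were called.

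TOP2A encodes DNA topoisomerase II alpha, the enzyme that separates intertwined chromosomes and the target of drugs such as etoposide. Its probe lay at chr17:38545709-38545768 of hg19 (minus strand) as the array files give it. The normalized log2 value was 1.74 and 1.77 on the mimic arrays and 2.18 and 2.19 on the control arrays. Both mimic arrays were lower than both control arrays by much more than the 2 arrays of a group differed. TOP2A fell by 0.43 on the log2 scale (SE 0.04, n = 2 arrays per group, 95% interval -0.54 to -0.33, limma adjusted p = 0.039), so that its signal was 1.35-fold higher in the control. Of all tested probes, 3.08% had a lower change.

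The TOP2A probe was printed 10 times on each array, so its value could be checked spot by spot. The highest of the usable spots on the mimic arrays read 1.85 and the lowest on the control arrays 2.09. The spots of the groups did not overlap. Spots of 1 array share its RNA and its labeling and are no replicates. With any 1 of the 4 arrays left out the change was between -0.45 and -0.42, and limma's adjusted p was between 0.155 and 0.196 in fits that called almost no probe.

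TOP2B, the isoform that cells express also outside of division, did not pass the test (change -0.12, SE 0.04, limma adjusted p = 0.188). Its mean was 4.02 (SD 0.03, n = 2) with the mimic and 4.13 in the control, again without overlap. The change of TOP2A minus that of TOP2B was -0.32 (SE 0.008), and -0.28 with normexp and -0.31 with quantile normalization. Here and below, the SE of a difference between genes comes from these arrays alone. It is not limma's SE, which also draws on the spread of all tested probes. With n = 2 per group such an SE is itself poorly known, so the 0.008 does not mean a higher precision.

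MKI67, the Ki-67 antigen that coats mitotic chromosomes, is the other member of the chromosome structure group and had a change of opposite sign. Its values were 1.40 and 1.32 with the mimic and 1.18 and 1.08 in the control, without overlap, but the adjusted p was 0.147 (change 0.23, SE 0.06). A pair of further MKI67 probes gave changes of 0.40 and 0.07, of the same sign and different size, with limma adjusted p of 0.063 and 0.399.

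Entry into mitosis needs CDK1 bound to a cyclin A or B, with CDC25 phosphatases to remove its inhibitory phosphates and FOXM1 to switch on late genes. Of these 7 genes 6 had a change above 0, beside 46.2% of all tested probes, and CCNB2 did not. With spike-in scaling only CCNA2 and CDC25B were above 0. CCNB2, cyclin B2, a partner of CDK1 found largely at the Golgi, read 4.38 and 4.37 with the mimic and 4.64 and 4.58 in the control. Both mimic arrays were below both control arrays. The change was -0.23 (SE 0.04, 95% interval -0.36 to -0.11), and limma's adjusted p was 0.092, so it did not pass. Of all tested probes, 10.4% had a lower change than CCNB2. The probe, at chr15:59417139-59417198 of hg19 (plus strand), was a single spot and the only one for the gene.

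Cyclin B1, the paralog and the main partner of CDK1 at mitotic entry, did not share that value. CCNB1 read 4.92 and 4.96 with the mimic and 4.89 and 4.89 in the control, both mimic arrays slightly above. Its change was 0.05 with a 95% interval of -0.06 to 0.16 (limma adjusted p = 0.451), and a second CCNB1 probe gave 0.11. The change of CCNB2 minus that of CCNB1 was -0.28 (SE 0.04).

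CCNA2, cyclin A2, which acts in S phase and at mitotic entry, read 2.40 and 2.42 with the mimic and 2.17 and 2.16 in the control. CDC25B, the phosphatase that starts the activation of CDK1, read 3.63 and 3.64 against 3.41 and 3.38. Neither gene's groups overlapped. The changes were 0.25 for CCNA2 and 0.24 for CDC25B (SE 0.04 each), with limma adjusted p of 0.072 and 0.077. The related CDC25C had a change of 0.17, and the difference between both CDC25 genes (0.07, SE 0.11) was smaller than its error. CDK1 itself had a change of 0.06 and FOXM1 of 0.15. A second CDK1 probe was not tested.

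**Figure D3:**
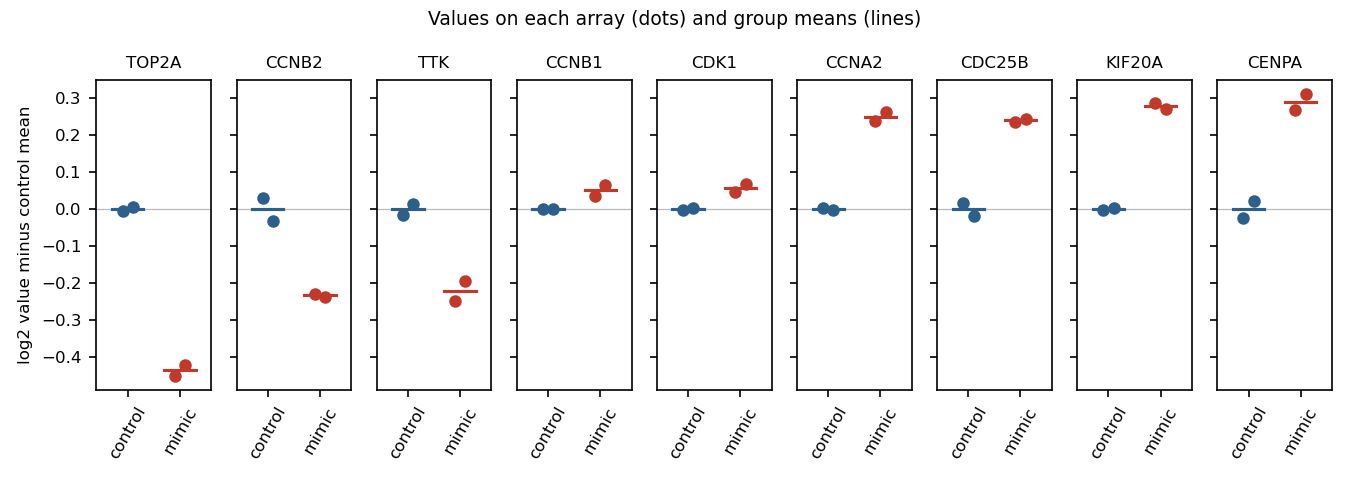
Log2 value on each array minus the control mean of the same gene (y axis), for 9 members, with dots for the 2 control and 2 mimic arrays and lines for group means. TOP2A, CCNB2 and TTK lie below their controls and the other genes above, and no groups overlap.

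The mitotic kinases AURKA, which matures the spindle poles, and PLK1, which acts from entry to exit, had changes of 0.14 and 0.17. In neither did the groups overlap, and the adjusted p-values were 0.147 and 0.144 (limma). A second, dimmer PLK1 probe had overlapping groups and a change of 0.12 (limma adjusted p = 0.724). AURKB, the kinase of the chromosomal passenger complex, which corrects faulty attachments of chromosomes, read 1.38 and 1.40 with the mimic and 1.20 and 1.14 in the control. Its change was 0.22 (SE 0.04, limma adjusted p = 0.098). The change of AURKB exceeded that of AURKA by 0.08 (SE 0.04). INCENP, the scaffold of that complex, read 1.56 and 1.52 against 1.35 and 1.34, a change of 0.19 (SE 0.04, limma adjusted p = 0.103). BIRC5, or survivin, which brings the complex to the centromere, had a change of 0.10. CDCA8, the borealin subunit, had 0.01 and overlapping groups, the smallest change of the 4. With spike-in scaling AURKB was at 0.03 and INCENP at 0.006, while AURKA, PLK1, BIRC5 and CDCA8 were below 0.

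In the spindle checkpoint, which holds cells in metaphase until all chromosomes are attached, the members did not move together. TTK, the kinase MPS1 that starts the signal, read 2.16 and 2.21 with the mimic and 2.39 and 2.42 in the control. Both mimic arrays were below both controls, with a change of -0.22 (SE 0.04, limma adjusted p = 0.098) that did not pass. MAD2L1, which blocks CDC20, was the only one of the 5 genes with both mimic arrays above the controls (0.16, limma adjusted p = 0.185). BUB1, BUB1B and BUB3 had overlapping groups and changes of 0.06, 0.09 and -0.02. The second BUB3 probe gave 0.07, the 1 case of 7 members with several tested probes where the signs differed. With spike-in scaling all 5 genes were below 0, from -0.41 for TTK to -0.02 for MAD2L1.

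Centromere and kinetochore genes had changes above 0 in 6 of 6, beside 46.2% of all tested probes. With spike-in scaling only CENPA stayed above 0. CENPA, the histone H3 variant that marks the centromere, had the highest change of any member. It read 1.51 and 1.55 with the mimic and 1.22 and 1.27 in the control. Both mimic arrays were above both controls, and the change was 0.29 (SE 0.04, limma adjusted p = 0.072), with 7.61% of all tested probes higher. The other 5 genes ranged from 0.04 for NUF2, whose groups overlapped, to 0.16 for CENPF. A second, dimmer CENPF probe gave 0.20. NDC80 and SPC25, which with NUF2 form the complex that grips microtubules, had 0.05 and 0.15, and the motor CENPE had 0.11.

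Spindle genes were likewise above 0 in 5 of 5, from 0.07 for KIF4A to 0.19 for KIF2C, a kinesin that shortens microtubules. Both mimic arrays were above both controls for each of them, as for 27.1% of all tested probes. With spike-in scaling KIF2C was at 0.0007 and the other spindle genes were below 0. KIF11, the motor that pushes the poles apart, had 0.13, and TPX2 and NUSAP1, which help microtubules form and bundle, had 0.08 and 0.09. The second KIF4A probe gave 0.22, above the value of the brighter probe.

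Among the 5 genes of the midzone and cytokinesis, KIF20A had the largest change. This kinesin, which carries the passenger complex to the midzone, read 1.40 and 1.38 with the mimic and 1.11 and 1.11 in the control. Both mimic arrays were above both controls. Its change was 0.28 (SE 0.04), and the adjusted p of 0.062 (limma) was the lowest among members with a change above 0. PRC1, which bundles midzone microtubules, had -0.004 and ECT2, which starts the cleavage furrow, had 0.08, both with overlapping groups. KIF23, the partner of ECT2's activator, had 0.16 and ANLN, the furrow scaffold, 0.06. A second KIF23 probe gave 0.15. With spike-in scaling KIF20A was at 0.09 and the other genes of this group were below 0.

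The genes that end mitosis had changes between 0.14 and 0.20, the narrowest range of the groups with more than 2 genes. CDC20, the activator of the anaphase-promoting complex, read 3.47 and 3.50 with the mimic and 3.30 and 3.26 in the control. Its mimic arrays were both higher, with a change of 0.20 (SE 0.04, limma adjusted p = 0.103). UBE2C, the ubiquitin-conjugating enzyme of that complex, had 0.14, securin (PTTG1) 0.17 and separase (ESPL1), which cuts cohesin, 0.17. All 4 had a limma p under 0.05 before adjustment, as had 11.7% of all tested probes in the same direction, and none passed after it. With spike-in scaling CDC20 was at 0.02 and the other genes of this group were below 0.

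TOP2A and CCNB2 can be set against the rest on each array, which removes any constant per array. On every array the median of the other members was subtracted from the gene's value. TTK, whose change of -0.22 was close to the -0.23 of CCNB2, was counted among the other members. For TOP2A this gave -1.59 and -1.63 on the mimic arrays and -1.12 and -1.06 on the control arrays, a difference of -0.52 (SE 0.03). For CCNB2 it gave 1.06 and 1.08 against 1.47 and 1.41, a difference of -0.37 (SE 0.03). Neither gene's groups overlapped. With normexp background correction the differences were -0.50 and -0.39, with quantile normalization -0.51 and -0.38. The SE of these differences is likewise not limma's but that of the arrays alone. These values are descriptions, and no test was run on them.

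The sign of most other members rested on the scaling. The external spike-in probes usable for scaling, 7 of 10, were all higher on the mimic arrays, with a median of 0.19. When the arrays were scaled to those probes, the members highest above control came close to 0: CENPA had a change of 0.10, KIF20A 0.09, CCNA2 0.06, CDC25B 0.05, MKI67 0.04, AURKB 0.03, CDC20 0.02 and INCENP 0.006. Then 9 of the 40 members were called lower (TOP2A, CCNB2, TTK, BUB3, PRC1, CDCA8, NDC80, CCNB1 and CDK1) and 0 higher, where 44.6% of all tested probes were called lower and 2.54% higher. The members' median lay above that of all tested probes by 0.15, and 36 of the 40 members lay above it; scaling by 1 constant per array, as both of these scalings do, cannot alter that difference. With normexp it was 0.11 and with quantile normalization 0.15, with 34 and 37 members above.

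**Figure D4:**
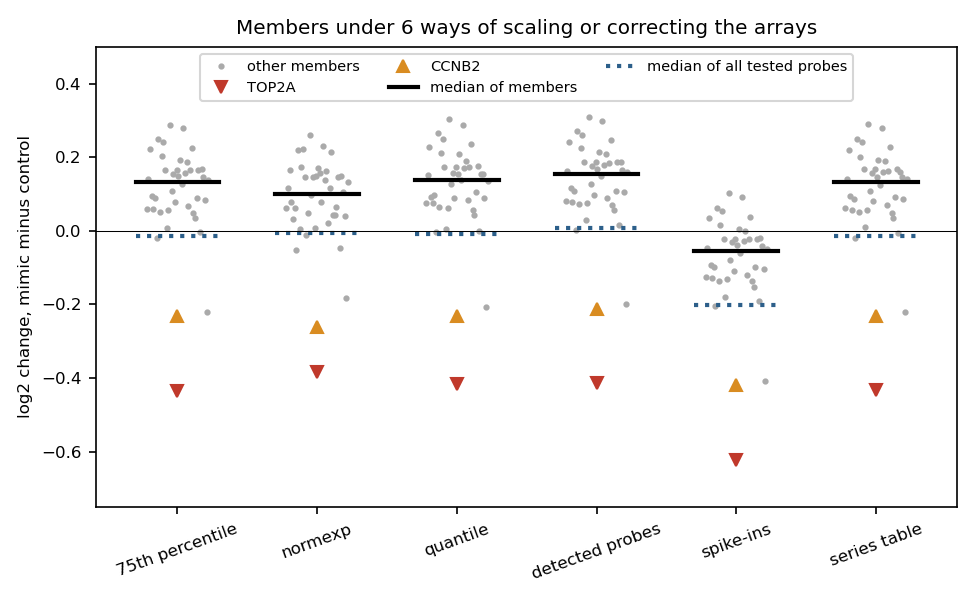
Change of each member (log2, mimic minus control, y axis) under 6 ways of scaling or correcting the arrays, with the medians of the members (solid line) and of all tested probes (dotted line). The members' median is 0.13 under 75th percentile scaling and -0.05 under spike-in scaling, above the median of all probes in each, and TOP2A and CCNB2 lie below 0 in each.

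Genes of neighboring lists had a shift of the same sign. Of 62 other mitosis genes 60 were tested; 49 had a change above 0 and 11 below, and their median was 0.09 (-0.10 with spike-in scaling). Of these 60, 1 passed the test, beside 2.62% of all tested probes. It was TROAP, a spindle-binding protein that rose by 0.49 (limma adjusted p = 0.041). CDCA3 had the next highest change (0.35), and CCNF, cyclin F, and SGO1, the protector of centromeric cohesin, the lowest (-0.21 and -0.18). Of 45 DNA replication and G1/S genes 44 were tested, with a median of 0.08 (-0.11 with spike-in scaling) and 38 above 0. Of these 44, 2 passed the test, beside the same 2.62% of all tested probes. CDC7, the kinase that fires replication origins, fell by 0.75 (limma adjusted p = 0.035). E2F2, a transcription factor of G1/S genes, passed the test upward with 0.38 (limma adjusted p = 0.049). CLSPN and RFC3 had changes of 0.53 and -0.24 and did not pass.

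Both medians lay below the members' 0.13. Per array, the median member lay 0.12 and 0.14 above its control mean on the mimic arrays, the median of the other mitosis genes 0.08 and 0.11, and that of the replication genes 0.07 and 0.09. No test of the difference between the lists was made.

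**Figure D5:**
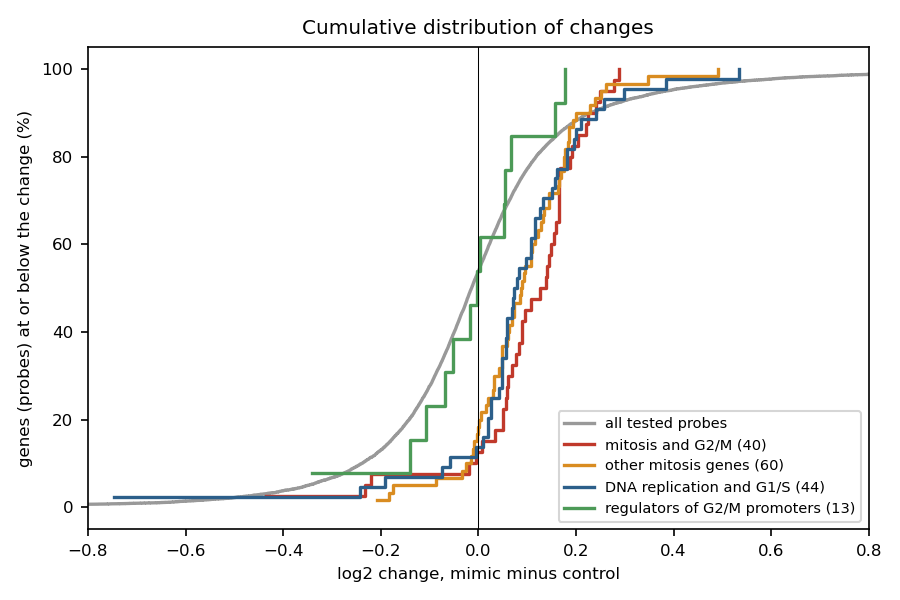
Cumulative share (%, y axis) of genes or probes at or below each change (log2, mimic minus control, x axis) for the members, 3 other lists and all tested probes. The members' curve lies to the right of all tested probes around the middle, with medians of 0.13 and -0.01, and only 5 members lie below 0.

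Relative to the other probes, the factors that act on G2/M promoters gave no common direction. None of the 13 passed the test, beside 2.62% of all tested probes. Of the 13, 6 had a change above 0 and 7 below, and the median was -0.003. The median change of the external spike-in probes, 0.19, exceeds the highest change of the 13, the 0.18 of MYBL2. Scaling to those probes therefore puts all 13 below 0. MYBL2, the B-Myb factor that joins MuvB at these promoters, had 0.18 (limma adjusted p = 0.108), and NFYB, a subunit of NF-Y, had -0.34 (limma adjusted p = 0.072). NFYB read -0.12 and -0.09 with the mimic and 0.28 and 0.19 in the control, without overlap. NFYA and NFYC, the other subunits, had -0.07 and 0.05. The next largest changes were 0.16 for RBL1, a pocket protein that represses cell cycle genes in resting cells, and -0.14 for TFDP1, the partner of E2F factors, and neither passed.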

How the data were processed

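Total RNA (100 ng) was labeled with 1 dye and hybridized to Agilent arrays. The intensity values that the authors deposited came from Feature Extraction 10.7.3.1, per the file headers, background-subtracted and not normalized between arrays. The deposited series table holds the same processed intensity and was an alternative. Each array had 62976 spots, 58717 of them not controls, for 50599 probes; the number of arrays limits the precision. Outlier spots (356 to 395 per array) were left out, spots of a probe averaged on the log2 scale, and each array scaled to its 75th percentile. Tested probes were well above background (at least 0.5 of usable spots) on both arrays of a group.

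Groups, from the labels, were tested for differences by limma 3.58.1 under R 4.3.3 (lmFit, eBayes, Benjamini-Hochberg, threshold 0.05), tested on simulated data. Members and lists were chosen with earlier results of these data known. Full values were given for TOP2A, CCNB2, CCNB1, called members, and the 8 largest positive and 4 largest negative changes without overlap (3 members met the latter); other genes by group; from other lists, those called and the 2 largest changes either way. Paralog proteins were not compared here. Unmatched table columns numbered 0. Alternatives covered background correction, scaling, filters, prior, probe choice, the methods' t-test, a replicate block and leaving out arrays. Samples given the same replicate number within their groups deviated with a correlation of 0.03, which cannot show whether they were paired. Figures used matplotlib 3.10.9.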

Additional observations from a re-analysis of the deposited data

Results flagged for a closer look

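The external spike-in probes, which the comparison of genes does not use, gave a signal of their own. They match RNA that is added from outside the cells, and their median log2 change, mimic minus control, was 0.19, with a range of 0.12 to 0.26 over the 7 probes well above background, all 7 higher with the mimic. The shift is larger than the median change of the members (0.13), so scaling to these probes puts 31 of 40 members below 0.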

How the results depend on the processing

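Over all 20328 tested probes 532 were called (233 lower, 299 higher). With normexp there were 1550 (758 lower, 792 higher) and with an intensity trend 3083 (1736 lower, 1347 higher). There were 9592 with spike-in scaling (9076 lower, 516 higher) and 4115 with the methods' t-test before adjustment (2231 lower, 1884 higher). The count was 0 for that t-test after Benjamini-Hochberg, with no filter, with a filter on at least 1 array and with the replicate number as a block, and 0 to 8 with 1 array left out. Members called lower, 1 at first, were 2 with normexp, 3 with the trend, 9 with spike-in scaling (1 of them, TOP2A, over 1.5-fold), 3 with the unadjusted t-test and 0 with the adjusted one, with no filter, with the 1-array filter, with the replicate block and with any array left out. Members called higher, 0 at first, were 5 with normexp, 20 with the trend and 16 with the unadjusted t-test, and 0 in the other alternatives. The cause of these differences was not tested. Arrays given the same replicate number deviated with a correlation of 0.03. The sample titles are numbered consecutively over both groups and name no pairs. With so few arrays, this correlation cannot show whether samples were paired.

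The members' median (0.13) was 0.10 with normexp, 0.15 with scaling to detected probes, -0.054 with spike-in scaling and 0.12 to 0.14 with an array left out. For the other mitosis genes (0.09) it was 0.11 with detected probes, 0.11 with the mean over a gene's probes, -0.10 with spike-in scaling and 0.079 to 0.11 with an array left out. For the replication genes (0.08) it was 0.092 with quantile normalization, 0.10 with detected probes, -0.11 with spike-in scaling and 0.073 to 0.10 with an array left out. With each probe centred on its control mean first, chosen after seeing the data, TOP2A relative to the other members was -0.57; with an array left out it was -0.55 to -0.49, and CCNB2 -0.40 to -0.34. TOP2A kept its sign in 18 of 18 alternatives and lost the threshold in 8. CCNB1 reversed with spike-in scaling (-0.14, limma adjusted p = 0.047). The other 10 genes given in full kept their sign in the same 18, although spike-in scaling left the 8 positive ones at 0.006 (INCENP) to 0.10 (CENPA). A slide or scan block could not be fitted, since the arrays shared both. Probes near background have little signal to resolve changes; every member lay well above it.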
